A study of Bos taurus with 2 samples.

Results

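The genes described here are 10 members of myostatin, activin and TGF-beta signalling in cultured bovine satellite cells. They are the ligand genes MSTN, INHBA, TGFB1 and TGFB2, the genes of the secreted binding proteins FST and FSTL1, and the receptor genes ACVR2A, ACVR2B, TGFBR1 and TGFBR2. They were chosen by name for their place in the pathway and not by a cut-off on a value, though earlier results of these data were known. They are 10 of the 21867 genes counted, of which 16816 had a count. Each of the 10 had counts in both libraries and passed the low-count filter in every comparison below. No sequence of these genes was at hand, so none is shown.

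Myostatin (MSTN) is a secreted inhibitor of muscle growth, and animals that lack it, among them several cattle breeds, are heavily muscled. INHBA encodes the beta A subunit of activin A. Both ligands bind a type II receptor, ACVR2B or ACVR2A, which recruits a type I receptor that phosphorylates SMAD2 and SMAD3. Follistatin (FST) binds activin and myostatin and keeps them from their receptors. The TGF-beta ligands of TGFB1 and TGFB2 are secreted in a latent form and act through TGFBR2 and TGFBR1, and they are known to hold back myoblast differentiation and to promote matrix production by fibroblasts.

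The cells came from the longissimus, a back muscle, of 1 male Holstein calf aged 2 weeks. They were released with pronase, enriched by centrifugation and grown in medium with serum for a week, and 2 libraries, replicates 1 and 2, were made from the same cells on the 10x Genomics platform. No treatment or genotype was compared, and the groups are the 15 clusters into which the study divided the cells. The study called clusters 4, 5 and 8 satellite cells, clusters 1 and 2 myoblasts, clusters 3 and 12 myocytes, clusters 7 and 9 fibro-adipogenic progenitors (mesenchymal cells of muscle that can form fibroblasts and fat cells), and gave no identity to cluster 6, clusters 10 and 11 or clusters 13 to 15. Clusters 1, 2, 3, 4, 5, 8 and 12 are called myogenic below, after the labels of the study. Because the libraries share cells, culture and animal, every p-value measures the spread between library preparations only. The clusters were also drawn from the same counts, so a test between clusters is no independent evidence that the groups differ.

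Levels are unique molecular identifiers (UMIs, each standing for 1 captured RNA molecule) of a gene per 10000 UMIs of all genes, given for replicate 1 first and replicate 2 second. Replicate 1 held 9939 cells with 145631299 UMIs and replicate 2 held 9157 cells with 137818568 UMIs, and 27 barcodes occurred in both. Clusters 7, 13, 14 and 15 were shallow, with medians of 1389, 1631, 2513.5 and 647 UMIs per cell, against 5398.5 in cluster 10 and 12929 to 23011 in the others. The levels of these 4 shallow clusters therefore rest on few UMIs. Levels are also printed without TMM, a scaling between sums that the tests use. It lowers the differences of cluster 7 from all other cells by a median of 0.64 on the log2 scale. Of the marker lists, 6 myocyte genes summed to 54.6 UMIs per 10000 in cluster 12 and 14.6 in cluster 3, the highest being cluster 12. The shallow cluster 7 exceeded cluster 3 in NEB (9.08 against 5.63), MYH3 (4.69 against 1.27) and MYMK (0.600 against 0.341). It was below cluster 3 in MYOG (1.74 against 6.68), MYL1 and STAC3. The myoblast markers did not follow the myogenic label alone. MYOD1 was at 5.76, 5.59 and 6.78 in clusters 6, 10 and 13, outside that label, against 5.18, 1.92 and 0.892 in clusters 1, 5 and 8. DES was at 3.93, 4.85 and 6.45 against 5.01, 1.22 and 0.972. Between these clusters MYF5 ran the other way, at 0.877, 0.609 and 0.744 against 1.55, 1.24 and 1.57. Over all clusters MYF5 did not follow the label either. It was at 0.702, 0.878 and 0.574 in myogenic clusters 2, 3 and 12, and at 1.06, 1.11 and 1.05 in clusters 11, 14 and 15. MYOD1 was at 6.73 and 6.36 in myogenic clusters 2 and 3. PAX7, which marks satellite cells, was at 0.0112 or below in every cluster. PAX3, the other satellite cell marker, had 316 UMIs in all. It was highest in cluster 8 (0.0277), then in cluster 5 (0.0213) and cluster 7 (0.0189), and was at 0.00403 in cluster 12. PDGFRA, a marker of fibro-adipogenic progenitors, was at 1.58 in cluster 9 and 1.52 in cluster 7, and PPARG at 0.288 and 0.0898, but the summed list of 6 such genes in cluster 9 (38.7) was only the median of the 15 clusters. Both glial markers were at 0 in all cells, and the endothelial markers summed to at most 0.0144. Of the blood cell markers, PTPRC had 1 UMI in all, but CD68 had 580, with the highest level in cluster 7 (0.142). The pericyte markers NOTCH3 and MCAM summed to at most 1.69, in cluster 7. The smooth muscle markers ACTA2 and MYH11 summed to 3.22 in the lowest cluster and 9.13 in the highest.

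Over the 15 clusters, each compared with all other cells, the 10 genes gave 150 pairs of gene and cluster. The level was called higher in 25 pairs and lower in 39, with 86 not called (edgeR quasi-likelihood test, Benjamini-Hochberg adjusted p under 0.05). Over all genes tested, 14.9% of pairs were called higher and 17.1% lower. With all 30 sums in 1 fit, which weights the clusters alike, the split was 35 higher and 26 lower. That fit averages the other clusters on a log scale. It therefore cannot decide low calls of MSTN, ACVR2B and TGFBR1, which had 0 UMIs in cluster 15. The calls were unevenly spread, with 9 of the 10 genes called in cluster 9 and 8 in cluster 12, against 0 in cluster 15. Of all genes, in either direction, 53% were called in the first of these, 54.3% in the second and 0.273% in the last.

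**Figure D1:**
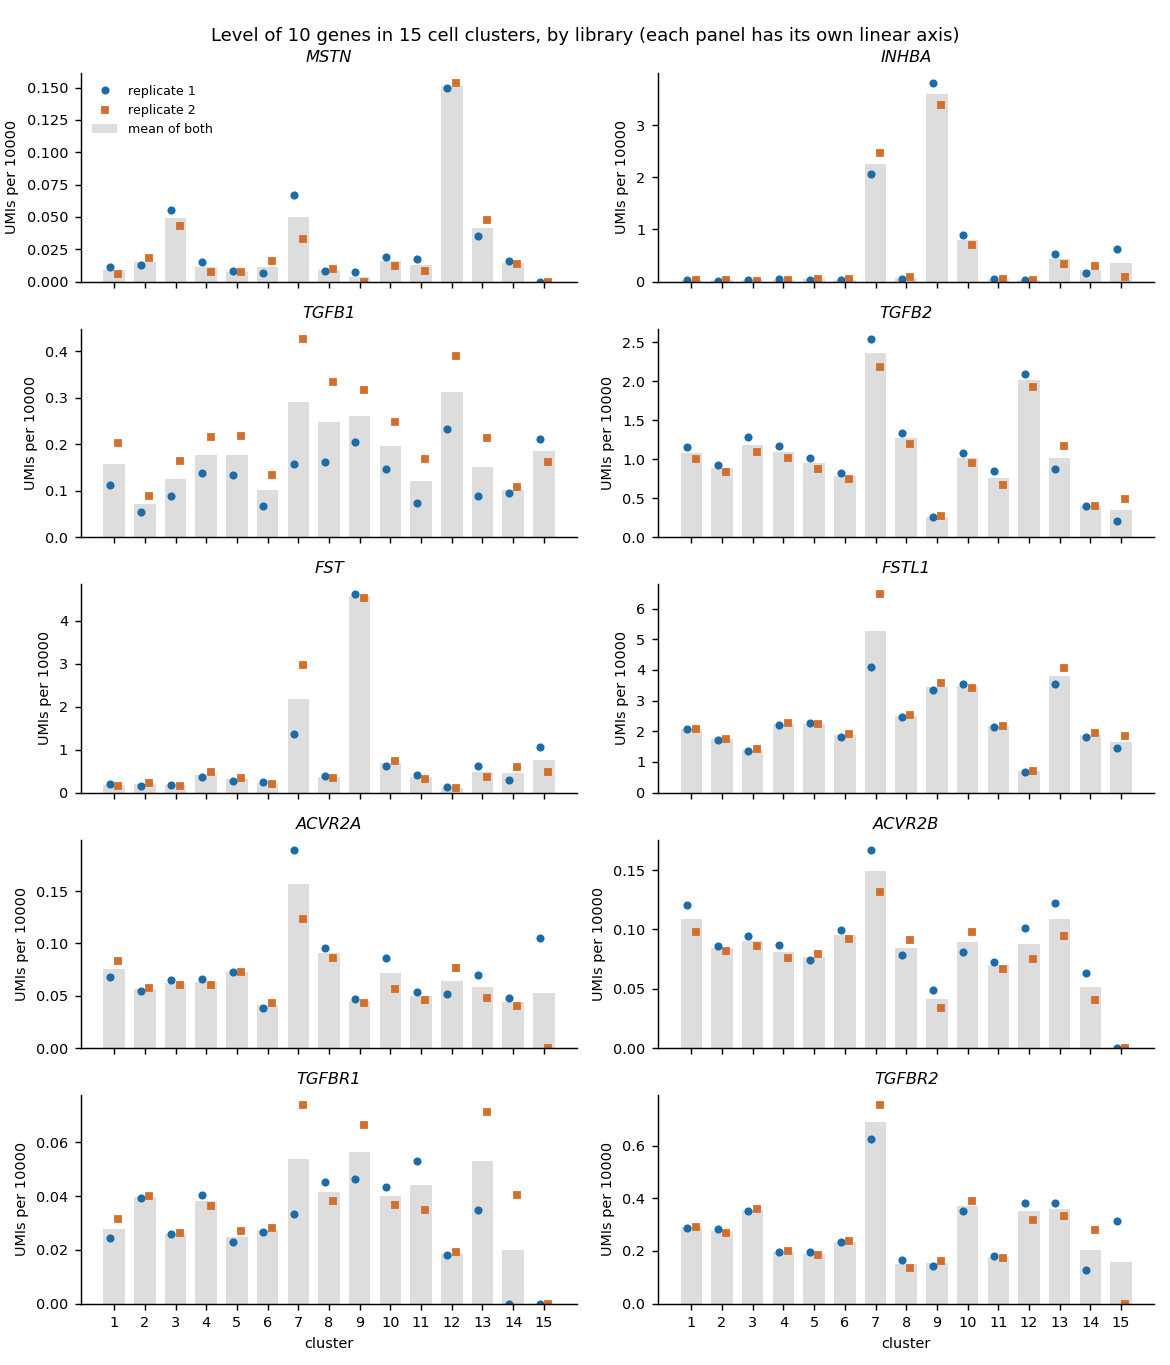
Level of each of the 10 genes, in UMIs per 10000 UMIs, in the 15 clusters (horizontal axis), with circles for replicate 1, squares for replicate 2 and bars for their mean, each panel on its own linear axis that starts at 0. MSTN peaked in cluster 12, INHBA and FST peaked in cluster 9 and were next highest in cluster 7, and TGFB1 was higher in replicate 2 in 14 of the 15 clusters.

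MSTN transcripts were scarce and were found mostly in the clusters called myocytes. All cells together held 619 MSTN UMIs in 461 cells (2.41%), and no cell had more than 6. Clusters 3 and 12 held 58.6% of these UMIs and 16.9% of the UMIs of all genes. The level was 0.150 and 0.153 in cluster 12 and 0.0555 and 0.0426 in cluster 3. Of the clusters called myoblasts, cluster 1 had 0.0111 and 0.00602 and cluster 2 had 0.0130 and 0.0179. The 3 clusters called satellite cells ranged from 0.00738 to 0.0154. Cluster 12 stood above every other cluster in both libraries, and among the 14 neighbours in the order of the 15 levels, 11 could not be told apart by their libraries. Cluster 7 (0.0669 and 0.0328) rests on 10 UMIs. Cluster 15 had 0 UMIs in 317 cells. By a limit of 3 counts this allows a share of up to 0.946% of cells with a UMI (upper end of the exact binomial interval 1.16%), for counting error only. These cells were very shallow, and cluster 15 held 219359 UMIs of all genes against 12408491 in cluster 12. Its 0 therefore cannot show a level far below that of cluster 12.

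Against all other cells, which held MSTN at 0.0175 and 0.0142, cluster 12 was higher by 3.43 on the log2 scale (SE 0.173, adjusted p = 1.67e-05). Cluster 3 was higher by 1.59 (SE 0.181, adjusted p = 8.97e-04). MSTN was called lower in clusters 1, 5, 8 and 9, with log2 differences from -2.68 to -1.31. None of these 4 calls held in the fit over all 30 sums. With 0 MSTN UMIs in cluster 15, that fit cannot decide whether another cluster is lower. Cluster 9 had 10 MSTN UMIs in replicate 1 and 0 in replicate 2. With replicate 1 alone the difference there was -1.86, and no fold is given for replicate 2. A UMI of MSTN was seen in 15.6% of cells in cluster 12 (95% exact binomial interval 12.9 to 18.7%) and in 0.741% in cluster 9 (0.320 to 1.45%), the latter with the higher median of 23011 UMIs per cell against 19113. With every cell thinned to 2000 UMIs, which leaves out 1898 shallower cells, these shares were 2.23% and 0.0926%. Inside cluster 12, the 48 and 50 cells with an MSTN UMI had MYOG, the myogenin gene that drives differentiation, at 14.6 and 14.7, against 18.8 and 20.1 in the cells without one. In cluster 3 the same values were 5.75 and 5.46 against 6.68 and 6.83. In cluster 1 the libraries were divided, with MYOG at 1.90 and 0.310 against 0.786 and 0.957. MYH3, also on the myocyte list, was lower in such cells of cluster 12, at 9.99 and 13.3 against 15.8 and 16.8. In cluster 3 it was higher in them, at 1.76 and 2.05 against 1.21 and 1.25. Cells with and without an MSTN UMI were not compared by a test, and those with one had more UMIs (median 20594 and 21329 against 18527 and 18945 in cluster 12).

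INHBA was concentrated in cluster 9. This cluster held 5.66% of the cells and 82.8% of the 11507 INHBA UMIs, at a level of 3.80 and 3.39. Cluster 7, which shares its name in the study, followed at 2.05 and 2.46, then cluster 10 at 0.894 and 0.692. In the myogenic clusters together the level was 0.0323 and 0.0315, and no single myogenic cluster exceeded 0.0834 in either library. The highest mean level was 175 times the lowest, in cluster 2. The values of clusters 9, 7 and 10 did not overlap with each other or with any other cluster, whereas 9 of the 14 neighbours in the order overlapped. In cluster 9, 92.6% of cells had an INHBA UMI (90.9 to 94.1%), the median of those being 7 UMIs and the highest 99. In cluster 12 it was 3.35% (2.08 to 5.07%). After thinning, clusters 9, 7 and 10 had shares of 43.4%, 20.1% and 9.90%, and no myogenic cluster was above 0.806%.

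Against all other cells, at 0.0731 and 0.0813, INHBA in cluster 9 was higher by 5.51 on the log2 scale (SE 0.0858, adjusted p = 1.08e-06). It was also called higher in cluster 7, by 1.89 (SE 0.155, adjusted p = 2.81e-04), and in cluster 10, by 0.89 (SE 0.132, adjusted p = 0.00196). In the 7 myogenic clusters and clusters 6 and 11 it was called lower, with log2 differences from -4.52 to -2.64. TMM scaling lowers every difference in cluster 7 relative to the levels printed, and without it INHBA was higher there by 2.54, against 0.427 and 0.355 in all other cells. The cells these 9 low clusters were compared with include cluster 9, which holds most of the UMIs.

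FST had the same peak as the activin gene. Cluster 9 held 62.4% of the 19358 FST UMIs, at 4.62 and 4.53, and 88.4% of its cells had an FST UMI. Cluster 7 was at 1.36 and 2.98 and cluster 10 at 0.627 and 0.741. Unlike INHBA, FST was readily seen in the clusters called satellite cells, where cluster 4 had 0.355 and 0.473, cluster 5 had 0.272 and 0.339 and cluster 8 had 0.392 and 0.334. It was lower in the clusters called myoblasts and myocytes, with 0.174 and 0.163 in cluster 3 and 0.117 and 0.101 in cluster 12, the lowest of the 15. Cluster 9 was higher than all other cells by 3.98 (SE 0.0666, adjusted p = 1.26e-06), and cluster 12 lower by 2.52 (SE 0.0924, adjusted p = 5.40e-06). The cells set against cluster 12 include cluster 9, and against cluster 3 alone it was lower by 0.53. The call in cluster 7, at 1.09 (SE 0.313, adjusted p = 0.0332), rests mostly on replicate 2, where the log2 difference was 1.58 against 0.29 in replicate 1. Without the low-count filter it was not called (adjusted p = 0.0580).

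The number of INHBA UMIs per FST UMI differed between the clusters. This ratio was 0.823 and 0.747 in cluster 9 and 0.319 and 0.317 in cluster 12, and in the other myogenic clusters it ranged from 0.0580 to 0.250. In cluster 10 it was 1.43 and 0.934, and in cluster 7 it was 1.51 and 0.826. The libraries of clusters 7 and 10 were thus further apart than those of cluster 9, and the ratio was not tested. A count of 1 gene against another also depends on how well each transcript is captured, so only the difference between clusters can be read.

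FSTL1 encodes a secreted glycoprotein related to follistatin that is made by many mesenchymal cells. It was the most widely detected of the 10, with a UMI in 83.8% of cells and 60009 UMIs in all. Its level was lower in the later myogenic clusters, from 2.46 and 2.54 in cluster 8 and 2.06 and 2.07 in cluster 1 to 1.34 and 1.42 in cluster 3 and 0.673 and 0.705 in cluster 12. Cluster 12 was the lowest of the 15 clusters, and only 4 of the 14 neighbours in the order overlapped. Cluster 12 was lower than all other cells by 1.48 on the log2 scale (SE 0.0530, adjusted p = 4.98e-06). Outside the 4 shallow clusters, cluster 9 at 3.34 and 3.57 and cluster 10 at 3.53 and 3.40 were the highest and were both called higher. With TMM scaling, the log2 difference from all other cells was 0.77 in cluster 9 and 0.73 in cluster 13, both above cluster 7. The highest printed level was in cluster 7, at 4.08 and 6.47. Its call there (log2 0.70, adjusted p = 0.0419) rests more on replicate 2 (1.01) than on replicate 1 (0.29). That call was lost without the low-count filter (adjusted p = 0.0753), without cells under 2000 UMIs (adjusted p = 0.0625) and with cells placed by their best fitting profile (adjusted p = 0.0515).

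TGFB2 had the most UMIs of the ligand genes and, outside the 4 shallow clusters, was highest in the same myocyte cluster as MSTN. Cluster 12 had 2.09 and 1.92, the myogenic clusters 1, 2, 3, 4, 5 and 8 lay between 0.831 and 1.33, and cluster 9 had 0.260 and 0.265. The printed level of cluster 7 was higher still, at 2.54 and 2.17, from 493 UMIs. With TMM scaling its log2 difference from all other cells, 0.62, was below the 1.28 of cluster 12. The level was higher than in all other cells in cluster 12 by 1.28 (SE 0.0902, adjusted p = 6.49e-05) and lower in cluster 9 by 2.04 (SE 0.0909, adjusted p = 1.36e-05). A UMI was seen in 89.8% of the cells of cluster 12 and 37.1% of cluster 9, and after thinning in 32.4% and 4.72%. TGFB2 thus ran opposite to INHBA and FST between these clusters.

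TGFB1 differed between the libraries by more than any of the other 9 genes. In all cells its level was 0.117 in replicate 1 and 0.204 in replicate 2, a ratio of 1.74. It was higher in replicate 2 in 14 of the 15 clusters, the exception being cluster 15 with 4 UMIs. Of the 9067 genes with at least 1000 UMIs, 84 (0.926%) were as far apart between the libraries. For the other 9 genes the log2 ratio of replicate 2 to replicate 1 lay between -0.23 and 0.07. What lies behind the gap was not tested. Cluster 2 was the lowest in both libraries, at 0.0544 and 0.0886. Cluster 12 was the highest in replicate 1 and second in replicate 2, at 0.233 and 0.390, whereas cluster 7, with 66 UMIs, was at 0.156 in replicate 1 and highest in replicate 2, at 0.427. All 14 neighbours in the order overlapped, but their spread includes the gap between the libraries. Cluster 12 was called higher than all other cells, by 1.2 (SE 0.330, adjusted p = 0.0217), and cluster 2 lower, by 1.31 (SE 0.352, adjusted p = 0.0421). The call in cluster 12 was lost without TMM scaling (log2 1.02, adjusted p = 0.0574), although both libraries gave nearly the same difference, 1.23 and 1.18. With the library as a block, which takes the gap out, TGFB1 was also called higher in clusters 4, 8 and 9 and lower in clusters 3, 6 and 11, with adjusted p from 1.66e-16 to 0.0243. The block leaves the edgeR fit little to estimate a spread from. For FST in cluster 1 it gave an adjusted p of 9.73e-274, where the fit without it gave 2.33e-04. P-values with the block can thus be too small and are not read as strength of evidence.

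**Figure D2:**
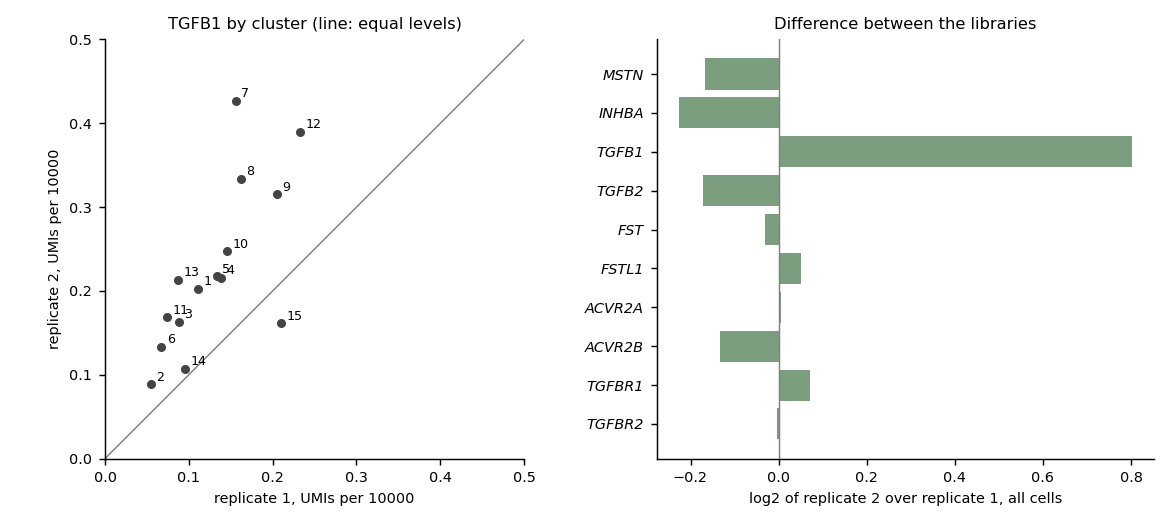
Left, TGFB1 level in replicate 1 (horizontal) and replicate 2 (vertical), in UMIs per 10000 UMIs, for each numbered cluster, with a line of equal levels. Right, log2 ratio of replicate 2 to replicate 1 in all cells for the 10 genes, where TGFB1 stands at 0.80 and the others lie between -0.23 and 0.07.

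Among the 4 receptor genes TGFBR2 had the highest level in all cells, 0.251 and 0.250. Their largest called difference from all other cells, 1.12 on the log2 scale, was smaller than that of each other member. By the highest over the lowest mean level, however, TGFBR2 (4.59) exceeded TGFB1 (4.35). ACVR2B, the main myostatin receptor gene, had 2388 UMIs, and its levels in the 7 myogenic clusters ranged from 0.0746 to 0.121. Outside the 4 shallow clusters it was lowest in cluster 9, at 0.0493 and 0.0337, and was called lower there by 1.12 (SE 0.172, adjusted p = 0.00229) and higher in cluster 1 by 0.51. ACVR2A, which binds activins and myostatin, had 1759 UMIs. It was called higher in cluster 8 (0.0951 and 0.0859, log2 0.64, adjusted p = 0.00537) and lower in clusters 6 and 9, and 12 of its 14 neighbours in the order overlapped. In cluster 9, where INHBA peaked, both activin type II receptor genes were therefore called lower than in all other cells. The mean level of ACVR2A there (0.0453) was still above those of clusters 14 (0.0439) and 6 (0.0410). Cluster 7, the next highest in INHBA, had the highest mean level of both receptor genes among the 15 clusters. ACVR2A was at 0.190 and 0.123 in cluster 7, from 32 UMIs, and ACVR2B at 0.167 and 0.131, from 31 UMIs. Neither was called in this shallow cluster, where TMM scaling lowers every difference relative to the levels printed. Against all other cells, the log2 difference of ACVR2B was 0.17 in cluster 7 and 0.51 in cluster 1. That of ACVR2A was 0.66 in cluster 7 and 0.64 in cluster 8. The low call of ACVR2A in cluster 9 did not hold in the fit over all 30 sums (adjusted p = 0.0537). Nor did that of ACVR2B, but with 0 ACVR2B UMIs in cluster 15 that fit cannot decide it.

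TGFBR2, the type II receptor gene for the TGF-beta ligands, followed the myogenic order in the direction opposite to FSTL1. Among the satellite cell clusters, cluster 8 had 0.165 and 0.135 and cluster 4 had 0.196 and 0.198. Cluster 1 had 0.288 and 0.291, cluster 3 had 0.354 and 0.359 and cluster 12 had 0.384 and 0.320. The libraries of clusters 3 and 12 overlapped, and those of clusters 4 and 1 did not. TGFBR2 was called higher than in all other cells in clusters 1, 3, 7, 10 and 12 and lower in clusters 4, 5, 8, 9 and 11. The largest of these differences were 0.85 (SE 0.128) in cluster 7 and -0.81 (SE 0.0774) in cluster 9. TGFBR1, the type I receptor gene, had the fewest UMIs of the receptor genes, 985. It was called higher in cluster 9 (0.0465 and 0.0665, log2 0.75, adjusted p = 0.0142) and lower in cluster 12 (0.0179 and 0.0192, log2 -0.76, adjusted p = 0.0195). The call in cluster 12 was lost with DESeq2 (adjusted p = 0.110) and in the fit over all 30 sums. The latter cannot decide it, as TGFBR1 had 0 UMIs in cluster 15.

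At 2000 UMIs per cell, few cells had a UMI of more than 1 receptor gene. After this thinning, a cell with none of the 4 receptor genes was the rule, from 79.2% in cluster 7 to 94.4% in cluster 9. In cluster 7 this covers 308 of its 1298 cells. At full depth, where TGFBR2 alone was seen in 28.1% of all cells, the receptor genes per cell were not counted. At most 1.62% of cells in any cluster had 2 of the 4 genes. At 2000 UMIs a missing UMI does not show that a cell lacks the receptor.

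Cluster 12 was compared directly with cluster 3, the other cluster called myocytes, to see how the genes differ within that label. Of the 10 genes, 3 were higher in cluster 12 (MSTN, TGFB1 and TGFB2), 2 were lower (FST and FSTL1) and 5 were not called. Of the 10811 genes tested, 18.2% were called higher and 15.6% lower, which is 1963 and 1687 genes, or 1552 and 2527 without TMM scaling. MSTN was higher by 1.71 on the log2 scale (SE 0.177, adjusted p = 2.51e-04), TGFB1 by 1.42 (SE 0.302, adjusted p = 0.00857) and TGFB2 by 0.86 (SE 0.0917, adjusted p = 2.99e-04). FSTL1 was lower by 0.90 (SE 0.0613, adjusted p = 2.73e-05) and FST by 0.53 (SE 0.128, adjusted p = 0.0147), the last not being called by DESeq2 (adjusted p = 0.143). Among the 10 genes, the ligand genes with a call were thus higher and the 2 binding protein genes lower in the cluster with more myocyte transcripts. The other genes of secreted antagonists and binding proteins, from the pathway list described below, were divided, with 3 higher and 3 lower of 7 tested. INHBA and the 4 receptor genes, with differences of -0.39 to 0.39, were not called. The median difference of the 10 genes was 0.11, against -0.02 for all genes tested.

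Cluster 3 was compared with cluster 1 as the step from cells with MYF5, a gene of committed myoblasts, to cells with MYOG. MSTN was higher in cluster 3 by 2.55 (SE 0.311, adjusted p = 7.85e-04) and TGFBR2 by 0.34 (SE 0.0603, adjusted p = 0.00415), and FSTL1 was lower by 0.55 (SE 0.0444, adjusted p = 1.38e-04). These were 2 higher and 1 lower of 10, beside 21.1% higher and 19.1% lower of 11362 genes. FST did not differ detectably, with 0.174 and 0.163 in cluster 3 against 0.199 and 0.147 in cluster 1. With the library as a block, TGFB1 was also called lower, by 0.29 (adjusted p = 0.00707), and TGFB2 higher, by 0.18 (adjusted p = 4.16e-06), which makes 3 higher and 2 lower. The limit on p-values with the block, given above, holds here too. The median over the 10 genes was -0.03, against 0.00351 for all genes. MSTN and FSTL1 moved in the same directions here as between clusters 3 and 12. These comparisons share the sums of cluster 3, so that a deviation in it would enter both.

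Cluster 9 was set against the 7 myogenic clusters together, to compare cells called fibro-adipogenic with cells called myogenic. INHBA was higher in cluster 9 by 6.79 (SE 0.0905, adjusted p = 3.26e-06), FST by 4.19 (SE 0.0719, adjusted p = 4.33e-06), FSTL1 by 0.85 (SE 0.0416, adjusted p = 5.58e-05) and TGFBR1 by 0.79 (SE 0.182, adjusted p = 0.0143). TGFB2 was lower by 2.11 (SE 0.0832, adjusted p = 2.96e-05), ACVR2B by 1.10 (SE 0.179, adjusted p = 0.00397), TGFBR2 by 0.81 (SE 0.0731, adjusted p = 4.57e-04) and ACVR2A by 0.59 (SE 0.108, adjusted p = 0.00603). MSTN was called lower (adjusted p = 0.0168), from 10 UMIs and 0 UMIs in cluster 9, and was not called by DESeq2 (adjusted p = 0.218). Without replicate 2 its log2 difference was -2.0, and without replicate 1 no MSTN UMI was left in cluster 9. TGFB1, at 0.205 and 0.315 against 0.115 and 0.200, was not called (log2 0.69, adjusted p = 0.120). It was called with the library as a block (adjusted p = 3.30e-07, with the limit given above), which sets each library of cluster 9 against the same library of the myogenic clusters. In all, 4 of the 10 genes were higher and 5 lower, beside 28.9% higher and 27.6% lower of 12941 genes. The median was 0.05 for the 10 genes and -0.01 for all genes.

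**Figure D3:**
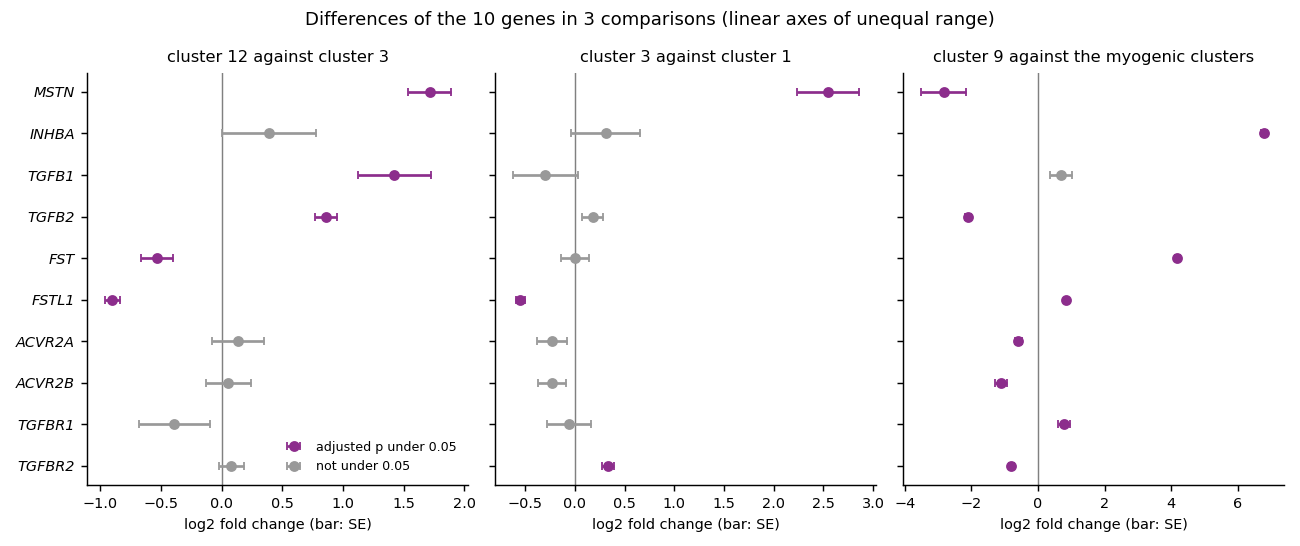
Log2 fold change (horizontal axis, bars for the standard error) of the 10 genes in 3 comparisons of clusters, filled in purple where the adjusted p was under 0.05 and grey otherwise. MSTN was higher by 1.71 in cluster 12 against 3 and by 2.55 in cluster 3 against 1, and INHBA was higher by 6.79 in cluster 9 against the myogenic clusters.

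In clusters 7 and 10, INHBA transcripts lay in a minority of the cells, and these cells also had higher levels of FST. Cluster 7 had 190 cells with an INHBA UMI (a median of 2 each) and 1108 without. The former had FST at 4.41 and 9.26 and the latter at 0.805 and 1.52. BGN, the gene of the matrix proteoglycan biglycan, was at 7.51 and 11.1 against 0.633 and 0.849, and PDGFRA at 4.19 and 5.57 against 0.686 and 0.849. MYOD1, a myogenic transcription factor, ran the other way, at 0.650 and 0.609 against 3.06 and 2.61. Cluster 9 as a whole had MYOD1 at 0.579. Cluster 10 showed the same directions. Its 174 cells with an INHBA UMI had FST at 1.48 and 1.61 against 0.322 and 0.456 in the 836 without, BGN at 2.80 and 2.75 against 0.242 and 0.303, and MYOD1 at 4.06 and 4.01 against 6.37 and 5.92. FST was also higher in the cells with an INHBA UMI, in both libraries, in clusters 2, 5, 8, 12 and 13. In cluster 12 the 21 such cells had FST at 0.340 and 0.323 against 0.107 and 0.0915, and BGN at 0.830 and 0.485 against 0.0374 and 0.0499. Clusters 3 and 4 were divided between the libraries, and cluster 1 ran the other way, with FST at 0.129 and 0.0915 against 0.202 and 0.148.

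In cluster 9 the 80 cells without an INHBA UMI differed little from the 1000 with one. FST was at 4.47 and 3.20 without and 4.63 and 4.63 with, and BGN at 2.77 and 2.69 without and 3.29 and 3.19 with. These values are descriptions over cells of the same libraries, with no test. Cells with a UMI were deeper, with a median of 1651.5 UMIs against 1342 in cluster 7 and 7598.5 against 5055.5 in cluster 10. Of the cells with the top 8% of doublet scores, 3 lay in cluster 7 (0.231% of its cells), 23 in cluster 10 (2.28%) and 156 in cluster 9 (14.4%). In clusters 2, 5, 8, 12 and 13 the shares were 9.58%, 12.7%, 0.886%, 3.19% and 0.166%. The part of free RNA and of mixed droplets in the levels of cells with and without an INHBA UMI was not tested.

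**Figure D4:**
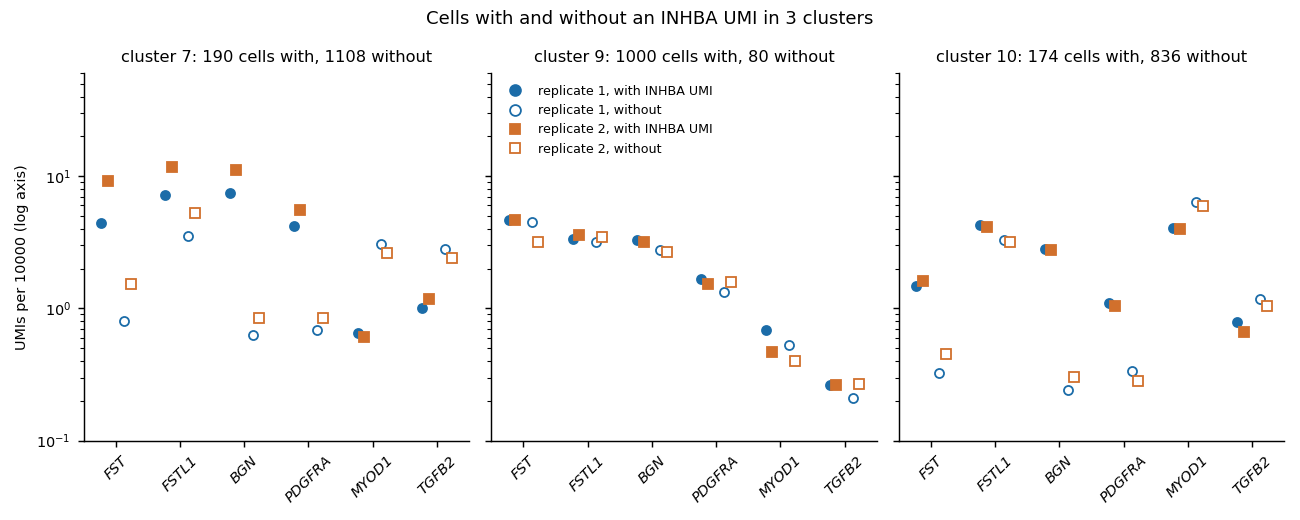
Levels of 6 genes, in UMIs per 10000 UMIs on a log axis, in cells with (filled) and without (open) an INHBA UMI in clusters 7, 9 and 10, with circles for replicate 1 and squares for replicate 2. In clusters 7 and 10, FST, BGN and PDGFRA were higher and MYOD1 and TGFB2 lower in cells with an INHBA UMI in both libraries, and in cluster 9 the groups lay close together.

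The other genes of the pathway were taken from a list of 80 genes by role. Between clusters 3 and 1, 64 of them were tested, with 8 higher and 29 lower in cluster 3 and a median of -0.24, beside 21.1% higher and 19.1% lower of all genes tested and their median of 0.00351. The targets, genes known to respond to these ligands, were 13 of these 29, with 0 of 18 higher and a median of -0.62. Among them were COL1A1 (log2 -1.23), FN1 (-1.02), ID3 (-1.05) and ID2 (-1.03), the genes of a collagen chain, fibronectin and inhibitors of basic helix-loop-helix factors. CTGF, a target often used to read TGF-beta signalling, was not called, at a log2 difference of 0.12. Collagen genes are also used as markers of mesenchymal cells, and the ID genes respond to BMP signals. Of the activators of latent ligands, 2 of 9 were higher and 6 lower, and of the SMAD proteins, 0 of 8 were higher and 3 lower, SMAD7 (-1.18), SMAD6 (-0.95) and SMAD4 (-0.39). The genes with the largest differences upwards were TGIF2 (1.41), a repressor that binds SMADs, ITGB8 (0.98), an integrin that activates latent TGF-beta, and THBS1 (0.97), thrombospondin. Downwards they were INHBB (-2.91), PCSK5 (-1.52) and TGFB3 (-1.50), of which INHBB had 6 UMIs in cluster 3 and 46 in cluster 1 and TGFB3 had 11 and 31.

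Between clusters 12 and 3 the list was divided, with 15 higher and 16 lower of 62 tested and a median of -0.02, beside 18.2% higher, 15.6% lower and the same median over all genes tested. INHA, the inhibin alpha subunit, was higher by 3.01 (SE 0.505, adjusted p = 0.00286), from 43 UMIs in cluster 12 and 16 in cluster 3. The difference was 3.36 in replicate 1 and 2.26 in replicate 2, with cluster 12 at 0.0488 and 0.0208. CDKN1A, a cell cycle inhibitor that TGF-beta and MYOD1 can both induce, was higher by 2.59 (SE 0.0771, adjusted p = 5.58e-07), at 10.2 and 9.05 against 1.76 and 1.67. ITGB6, from 23 and 19 UMIs, was higher by 1.86. Lower were ID2 (-1.09) and LTBP2 (-0.85), which belongs to the latent TGF-beta binding proteins. Of the 18 targets tested, 4 were higher and 7 lower.

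Between cluster 9 and the myogenic clusters, 70 list genes were tested, 27 being higher and 25 lower, with a median of -0.01. Over all genes tested 28.9% were higher and 27.6% lower, with a median of -0.01. Of 8 SMAD genes tested, 3 were higher and 3 lower. The inhibitory SMAD6 (1.89) and SMAD7 (1.85) were higher, and SMAD5 was at 1.90 and 1.99 against 1.15 and 1.17. SMAD3 (-1.11) and SMAD2 (-0.33), which carry activin and TGF-beta signals, were lower, SMAD3 from 17 UMIs in cluster 9. SMAD1 was at 0.257 and 0.260 against 0.483 and 0.479. SMAD4, which all branches share, was not called. The secreted binding proteins counted 5 higher and 2 lower of 10, with BGN at 3.25 and 3.16 in cluster 9 against 0.0604 and 0.0634 (log2 5.67, SE 0.0546). ENG, a TGF-beta co-receptor, was higher by 4.25 (SE 0.0760) in cluster 9. CHRD, the BMP antagonist chordin, was lower by 2.33 and ITGB8 by 1.99. ITGB6 had 0 UMIs in cluster 9 and 59 in the myogenic clusters, which with a limit of 3 counts over both libraries makes it at least 2.62-fold lower. Of the 18 targets, 8 were higher and 7 lower, so that the targets did not move together.

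**Figure D5:**
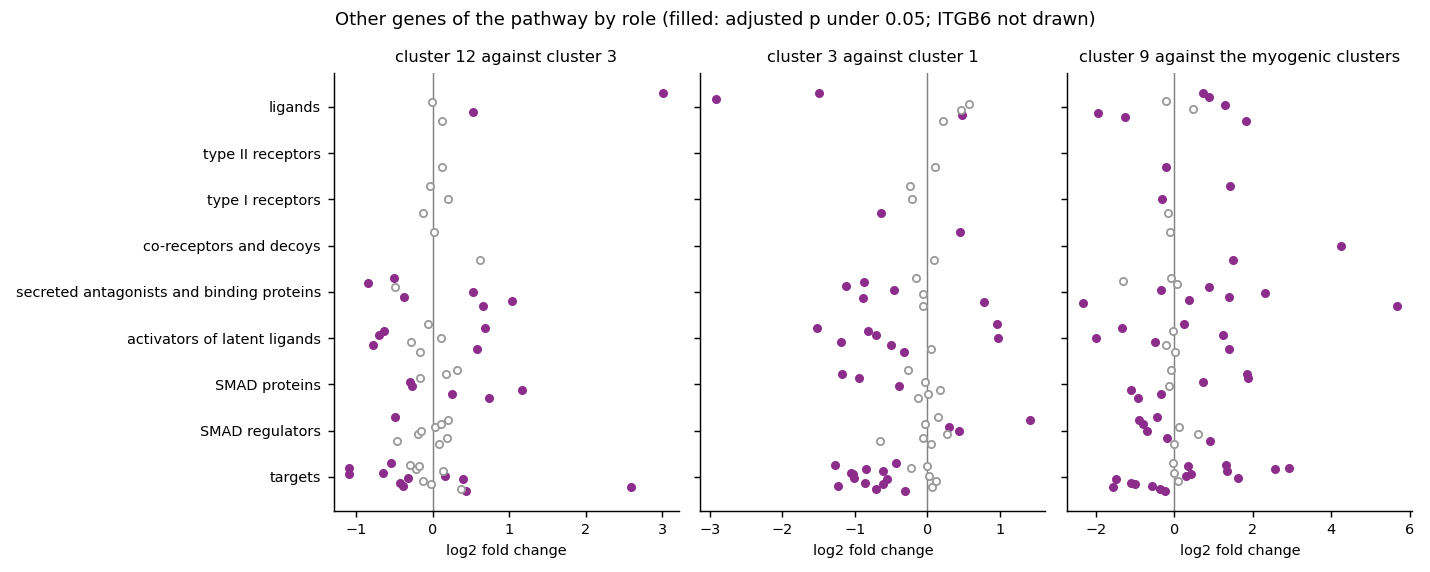
Log2 fold change (horizontal axis) of each other tested gene of the pathway list, arranged by role, in the 3 comparisons, filled where the adjusted p was under 0.05, with vertical offsets only to separate points and ITGB6 left out. In cluster 3 against cluster 1, 13 of 18 targets were lower and 0 higher, whereas in cluster 9 against the myogenic clusters 8 were higher and 7 lower.

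Across the 15 clusters, INHBA and FST had a Pearson correlation of 0.92 on log2(UMIs per 10000 + 0.01), the highest of the 28 pairs among the 8 members with at least 1000 UMIs. TGFB2 correlated most with ACVR2A (0.76) and TGFBR2 (0.70), and FST with TGFB2 at -0.39. Of 9067 genes with at least 1000 UMIs, those most like INHBA were BGN (0.993), CXCL12 (0.980) and DPT (0.968). Most like FST were TINAGL1 (0.971), GLDC (0.970) and CHST9 (0.964), and most like FSTL1 were SHC1 (0.982), GLIS2 (0.971) and MMP14 (0.966). For TGFB2 these were NCAM1 (0.942), KLHL24 (0.924) and MACF1 (0.919), for TGFBR2 CSRNP1 (0.977), IQSEC1 (0.959) and TRIO (0.954), and for ACVR2B KDM4B (0.975), CLCN3 (0.974) and NECTIN2 (0.968). ACVR2A was most like COL1A2 (0.948), EFEMP2 (0.923) and CCDC186 (0.913). TGFB1 had the weakest likeness, to ARMCX3 (0.932), PROS1 (0.826) and ZNF423 (0.816). The 15 points share their libraries, and shallow clusters weigh as much as deep ones, so these values describe the clusters and were not tested. ACVR2B had 0 UMIs in the very shallow cluster 15. Its value there is the added 0.01 alone, and this point weighs on its correlations.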

How the data were processed

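The authors' pipeline was Cell Ranger 3.0.2, run on both libraries with the ARS-UCD1.2 assembly and then pooled. The deposited matrix holds whole UMI counts of 21867 genes in 19096 cells. The authors pooled the libraries with normalization by mapped reads, so these counts are not free of normalization between the libraries. A deposited table gives 15 cluster averages for 16816 genes, in another unit (UMIs on a shared scale), beside fold changes and p-values that were not used. The averages, turned into whole UMI sums per gene, and the UMI counts per gene of each cell fixed the cluster of every cell exactly. In 0 of 252240 pairs of gene and cluster did the rebuilt sums differ from the deposited averages. The library was read from the barcode's ending, in the order in which Cell Ranger numbers libraries.

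UMIs were summed per library over each set of clusters and compared, 2 sums against 2, with edgeR 4.0.16 (R 4.3.3; quasi-likelihood test, TMM, filterByExpr, Benjamini-Hochberg over all genes tested, threshold 0.05). Without TMM the median log2 difference of all genes against all other cells moves by 0.64 in cluster 7, 0.22 in cluster 15, 0.11 in clusters 10 and 13, -0.18 in cluster 12 and -0.13 in cluster 3. On simulated counts for clusters 12 and 3, 97.5% of 200 genes changed 3-fold were recovered among 10768. The changed genes were not drawn from those with the fewest UMIs, and the simulated libraries were unpaired with a fixed spread. This checks the code and does not show how well the test holds for these data.

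Sums of the same library are paired by construction. Their log2 deviations over genes with at least 20 UMIs correlated at 0.396 for clusters 12 and 3, 0.512 for 3 and 1 and 0.621 for 9 and the myogenic clusters, and from 0.167 to 0.668 for each cluster against the rest. A block for the library was an alternative, as were DESeq2 1.42.0, no TMM, no filter, 1 fit over 30 sums, cells under 2000 UMIs or the top 8% of Scrublet scores left out (scanpy 1.11.5), each cell placed by its best fitting profile, and 1 library alone. The doublet rule was chosen after the data were seen, since the automatic thresholds called 0 and 1 cells. Doublets were otherwise kept.

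The 10 genes and the lists (pathway roles, cell type markers) were chosen with earlier results of these data known. The named genes are the 10, in each direct comparison the 3 pathway genes highest and the 3 lowest among those called with 1 sign in both libraries, the 3 genes most correlated with each of the 10 that had 1000 UMIs, and markers, of which 1 pathway gene is not reported here. COL1A1, FN1, ID3, CTGF, the SMAD genes, and BGN, PDGFRA, MYOD1, MYOG and MYH3 inside clusters were named outside this rule. They were named after their values were seen. Of the list's symbols, 4 were not among the features. Exact binomial intervals are at 95% and cover counting error only.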

Additional observations from a re-analysis of the deposited data

How the results depend on the processing

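Of 81 called single results, 62 kept their call and direction in every refit. All 81 had the same sign in both libraries, but they were called from these same libraries, so this adds no support. For MSTN in cluster 9 the sign in replicate 2 comes from 0 UMIs. The fit over 30 sums weakened the most calls, 13 of the 64 pairs of gene and cluster, most of them low calls of MSTN and FST. That fit cannot decide low calls of MSTN, ACVR2B and TGFBR1, which had 0 UMIs in cluster 15. DESeq2 weakened 4 of the 94 single results. Among all genes, DESeq2 called 2268 between clusters 12 and 3 (1423 higher, 845 lower) where edgeR called 3650, and 2865 between clusters 3 and 1 (1611 higher, 1254 lower) where edgeR called 4562. The replicate block, with the library as the paired term, raised the called members between clusters 3 and 1 from 3 to 5, gave 91 called pairs of gene and cluster in place of 64, called TGFB1 between cluster 9 and the myogenic clusters, and ended no call. As its p-values can be too small, the added calls are not read as further support. Reversals were seen only in differences that were not called. Between clusters 12 and 3, INHBA became -0.22 with cells placed by profile and -0.0237 without the cells of high doublet score, ACVR2B became -0.0253 by profile and -0.0441 without TMM, and TGFBR2 became -0.0204 without TMM. Between clusters 3 and 1, INHBA became -0.26 without the cells of high doublet score. The cause of these changes was not tested. The automatic doublet thresholds called 0 and 1 cells, so no fit was made without those cells, and cluster 15 has no cell with 2000 UMIs, so it has no value without shallow cells.

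With 2 libraries of 1 calf, neither animals nor cultures were replicated. MSTN, TGFBR1 and the receptors in clusters 7, 13, 14 and 15 rest on few UMIs, and differences there were often not detectable.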
